A study of Arabidopsis thaliana with 14 samples.

Results

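The start of intron 1 of *FLC*, from the +3 position onwards, was described from the DNA fragments left by micrococcal nuclease (MNase). The fragments belonging to it were chosen by position alone, as all those with a midpoint 380 to 999 bp downstream of the transcription start site (TSS). This gave 16375 distinct fragments of the 241708 found over *FLC*. The stretch is 620 bp long, from 3178449 to 3179068 on chromosome 5 of TAIR10, and *FLC* is read from the minus strand with its TSS at 3179448. It lies wholly inside intron 1, which runs from 3175662 to 3179154 between exon 1 and exon 2, and its near border is downstream of the exon 1 splice donor. All 237 capture baits for *FLC* matched the reference at their stated coordinates, and every one of the 620 bases lay under a bait.

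The study mapped nucleosomes over *FLC* before and early in cold, in plants with and without the chromatin protein VRN1. Whole seedlings were used, so each library averages over all cell types of the plant. All groups carried an active *FRIGIDA* allele in the Col-0 background, which keeps *FLC* expressed until cold. WT FRI had no further mutation, and *vrn1-4* FRI carried the *vrn1-4* mutant allele. Seedlings were grown for 10 days at 22 °C (warm, 3 libraries per genotype) or were then kept for 1 week at 5 °C (1W cold, 4 libraries per genotype). The cold seedlings were therefore also 1 week older, and cold and age cannot be told apart. Each value below is a percentage of all *FLC* fragments of 100 to 150 bp in the library, so it is relative to the locus and says nothing of a gain or loss over all of *FLC*.

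The number of reads behind each library is unknown, because only fractions were deposited. As a guide, the region held 850 to 6346 distinct fragments per library in WT FRI warm, 3240 to 7511 in WT FRI 1W cold, 4175 to 5414 in *vrn1-4* FRI warm and 5770 to 8465 in *vrn1-4* FRI 1W cold. WT FRI warm replicates 1 and 2, with 1669 and 850, were the poorest libraries, and no counting interval could be given for any value. WT FRI 1W cold replicate 1 stood apart from the other 3 libraries of its group in several measures of fragment ends and length. Some of the results that change their side of a p of 0.05 without it are given both ways, but not all. Unless stated, n is 3 libraries for warm and 4 for 1W cold, errors are SD, and tests are two-sided exact permutation tests on group means. Such a test cannot give a p below 0.0286 for 3 libraries against 4 or 4 against 4, nor below 0.1 for 3 against 3.

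*FLC* encodes a MADS-box repressor of flowering that prolonged cold silences through the Polycomb system. Silencing begins in the nucleation region around the TSS, exon 1 and the start of intron 1, where Polycomb repressive complex 2 deposits H3K27me3. The start of intron 1 also carries a pair of RY elements, short DNA motifs recognised by the B3-domain proteins VAL1 and VAL2, which recruit silencing factors to *FLC*. VRN1 is itself a plant-specific DNA-binding protein with B3 domains that is needed for stable silencing after cold.

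The sequences that carry the findings are the RY elements with the DNA that follows them, and the other positions where fragments were centred. All are printed on the strand of *FLC*, 5′ to 3′, from NCBI's TAIR10.1 reference, with distances counted in bp from the TSS (base 0). The first line shows chr5:3178753-3178878, at 570 to 695 bp, with both RY elements in capitals. The next lines align the elements by their own first base, RY-1 at chr5:3178853-3178874 and RY-2 at chr5:3178820-3178841, because fragments ended at the same step of each.
RY stretch: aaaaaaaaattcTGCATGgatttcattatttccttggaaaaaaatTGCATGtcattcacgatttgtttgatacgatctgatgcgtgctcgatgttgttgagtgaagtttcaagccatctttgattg
RY-1: aaaaattcTGCATGgatttcat
RY-2: aaaaaaatTGCATGtcattcac
RY-1 covers 582 to 587 bp (3178861 to 3178866) and RY-2 covers 615 to 620 bp (3178828 to 3178833), 33 bp further on and in the same orientation. The letters searched were TGCATG and its reverse complement CATGCA. Only 1 more match was found over the whole *FLC* target, at 3950 bp. Of 43472 windows of 620 bp along chromosome 5, 22.0% held at least 1 match and 5.56% held at least 2. Of 14 such windows over *FLC*, 2 held a match and this was the single one with 2. The telobox letters AAACCCT, searched on both strands, were not in the region. Its GC content was 31.9%, against 32.9% for the *FLC* target.

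Fragments of the region were centred on 3 positions, at 465, 638 and 911 bp from the TSS. These were the local maxima of the midpoint profile averaged over the 4 group means, after smoothing over 11 bp and at least 60 bp apart. The position at 638 bp was the highest, and the RY elements lie on its TSS side. The spacing was 173 bp from the first to the second position and 273 bp from the second to the third. The 147 bp centred on the first and last positions, at chr5:3178910-3179056 and chr5:3178464-3178610, hold no RY element and are shown to complete the set.
Position 465: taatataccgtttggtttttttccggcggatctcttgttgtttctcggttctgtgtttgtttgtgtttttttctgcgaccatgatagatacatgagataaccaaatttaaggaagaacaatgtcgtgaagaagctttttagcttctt
Position 911: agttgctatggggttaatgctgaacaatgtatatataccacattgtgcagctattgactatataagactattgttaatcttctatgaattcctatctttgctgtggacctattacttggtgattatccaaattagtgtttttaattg

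Coverage, the percentage of *FLC* fragments lying over a base, was highest at 638 bp among the 3 positions in every group. It was 2.12 ± 0.308% in WT FRI warm, 2.55 ± 0.255% in WT FRI 1W cold, 2.41 ± 0.0119% in *vrn1-4* FRI warm and 2.59 ± 0.206% in *vrn1-4* FRI 1W cold. Over 465 bp it was 1.06 ± 0.184%, 1.38 ± 0.149%, 1.02 ± 0.0665% and 1.01 ± 0.1% in the same order. The last position was lower still, with 0.822 ± 0.142%, 0.857 ± 0.113%, 0.633 ± 0.0219% and 0.759 ± 0.0871%. Between the first and second positions the lowest coverage was at 536 bp, where group means were 0.522 to 0.79%. A deeper gap lay at 834 bp, between the central and the last position, with group means of 0.216 to 0.338% and no library above 0.421%. The second position was thus flanked by a shallow gap on its TSS side and a deep one on the other, in both genotypes and at both temperatures.

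**Figure D1:**
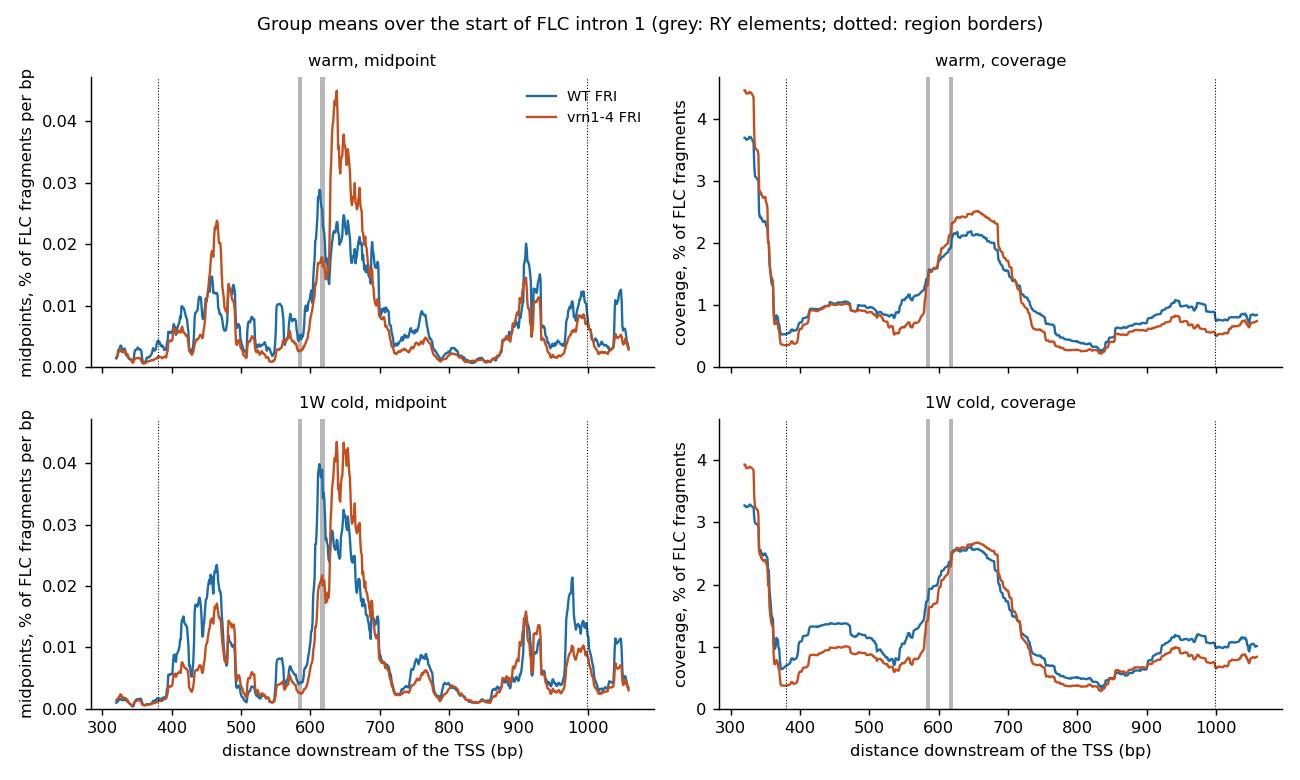
Midpoints (left, percentage of *FLC* fragments per bp, smoothed over 11 bp) and coverage (right, percentage of *FLC* fragments) against distance from the TSS in bp, as means of the libraries of each group, warm above and 1W cold below. The *vrn1-4* FRI curve peaks at 638 bp beyond both RY elements (grey bands), while WT FRI is highest at 613 bp, between the elements. Maxima of single WT FRI libraries ranged from 613 to 654 bp at both temperatures.

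At the central position the genotypes differed in where the fragments were centred. In the 3 *vrn1-4* FRI warm libraries the smoothed maximum lay at 635 to 638 bp, and in the WT FRI warm libraries at 614, 654 and 613 bp. In 1W cold it lay at 638 to 654 bp in *vrn1-4* FRI and at 654, 613, 613 and 617 bp in WT FRI. For a summary the region was divided into 4 segments of 155 bp, and the mean midpoint was taken in segment 2 (535 to 689 bp), which holds the RY elements. It was 625.6, 632.4 and 630 bp in WT FRI warm and 643.5, 639.7 and 638.5 bp in *vrn1-4* FRI warm. In 1W cold it was 638.1, 631.2, 626.9 and 628.7 bp in WT FRI and 642, 638.7, 638.7 and 644.7 bp in *vrn1-4* FRI. All *vrn1-4* FRI libraries lay further from the TSS than all WT FRI libraries, with WT FRI 1W cold replicate 1 (638.1 bp) next to the nearest of them (638.5 bp). The difference was 11.3 bp in the warm (exact permutation p = 0.1, the smallest possible, and 0.2 after Benjamini-Hochberg adjustment over 20 tests of midpoints) and 9.79 bp in 1W cold (exact permutation p = 0.0286, adjusted 0.143). Without WT FRI 1W cold replicate 1 the cold difference was 12.1 bp (exact permutation p = 0.0286), and its p became 0.0571 when any 1 *vrn1-4* FRI 1W cold library was left out (8.57 to 10.6 bp). With each distinct fragment counted once it was 2.78 bp (exact permutation p = 0.0857). Cold and warm differed little within a genotype, by 1.91 bp in WT FRI and 0.425 bp in *vrn1-4* FRI (exact permutation p = 0.629 and 0.771). In segment 4 (845 to 999 bp) the genotypes differed the other way, with *vrn1-4* FRI nearer the TSS and no overlap at either temperature. There the mean midpoint differed by -6.62 bp in the warm (exact permutation p = 0.1, adjusted 0.2), *vrn1-4* FRI less WT FRI. In 1W cold it differed by -9.75 bp (exact permutation p = 0.0286, adjusted 0.143), and by -8.03 bp without *vrn1-4* FRI replicate 4 (exact permutation p = 0.0571).

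The same stretch was then examined by the ends of the fragments. On the TSS side, by the mean of the 4 group means, the most frequent end in the region was at 586 bp and the next at 619 bp, although the order differed between groups. Both fall inside an RY element and between its A and second T, that is TGCA|TG, as the aligned sequences show. An end at 586 bp was carried by 0.151 ± 0.0195% of *FLC* fragments in WT FRI warm, 0.157 ± 0.047% in WT FRI 1W cold, 0.176 ± 0.0237% in *vrn1-4* FRI warm and 0.184 ± 0.0202% in *vrn1-4* FRI 1W cold. An end at 619 bp was carried by 0.159 ± 0.0143%, 0.142 ± 0.0101%, 0.166 ± 0.0241% and 0.181 ± 0.0278% in that order. Among the 101 positions centred on each end, these ranked first and second as TSS-side ends by that mean. In *vrn1-4* FRI warm the end at 582 bp was more frequent, at 0.187 ± 0.0222%, and in WT FRI warm the end at 619 bp exceeded that at 586 bp. An end at 544 bp, before RY-1, was carried by 0.0885, 0.163, 0.196 and 0.173% in WT FRI 1W cold. In replicates 2 to 4 of that group it was more frequent than the ends at 586 and 619 bp. MNase cuts preferentially beside A and T, and 87.4 to 92.1% of the fragment ends of the region began with A or T, against 87.1 to 92.2% over all *FLC*. The base before the end was A or T at 74.7 to 82.7% of the ends of the region and at 69.3 to 77.2% over all *FLC*, and higher in the region in all 14 libraries. The part of this preference in the ends at the RY elements was not tested.

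The ends next in frequency, at 582 and 580 bp, sit at the first base of RY-1 and 2 bp before it. In the warm the end at 582 bp was carried by 0.0597, 0.0522 and 0.122% of *FLC* fragments in WT FRI and by 0.198, 0.161 and 0.201% in *vrn1-4* FRI. The end at 580 bp was carried by 0.0343, 0.0669 and 0.0767% in WT FRI warm and by 0.166, 0.151 and 0.189% in *vrn1-4* FRI warm. The genotypes did not overlap at either end in the warm (exact permutation p = 0.1 for each, the smallest possible). Both ends were chosen by the mean of the 4 group means, which the *vrn1-4* FRI values raised, so this contrast is not independent of the choice. The share of all ends of the region without overlap was not determined. In 1W cold the *vrn1-4* FRI libraries had 0.138 to 0.216% at 582 bp, and WT FRI had 0.203, 0.0492, 0.0634 and 0.0768%. The first of these WT FRI values is replicate 1, and the other 3 lay below every *vrn1-4* FRI library (exact permutation p = 0.114 with all 4).

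On the far side of the central position, ends at 685 bp and 680 bp went opposite ways between the genotypes. The end at 685 bp was the most frequent far end, with 0.137, 0.107 and 0.188% in WT FRI warm and 0.294, 0.33 and 0.339% in *vrn1-4* FRI warm. In 1W cold it was carried by 0.321, 0.137, 0.156 and 0.147% in WT FRI and by 0.323, 0.268, 0.283 and 0.185% in *vrn1-4* FRI. The end at 680 bp was carried by 0.1 ± 0.0325% in WT FRI warm against 0.0486 ± 0.0121% in *vrn1-4* FRI warm, and 0.156 ± 0.0566% against 0.0636 ± 0.0151% in 1W cold. At neither temperature could either end be called (exact permutation p of 0.1 and 0.229 at 685 bp, 0.1 and 0.0571 at 680 bp). These far ends were chosen by the same mean, so their contrasts are not independent of the choice either. At 685 bp WT FRI 1W cold replicate 1 was again within the range of *vrn1-4* FRI.

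**Figure D2:**
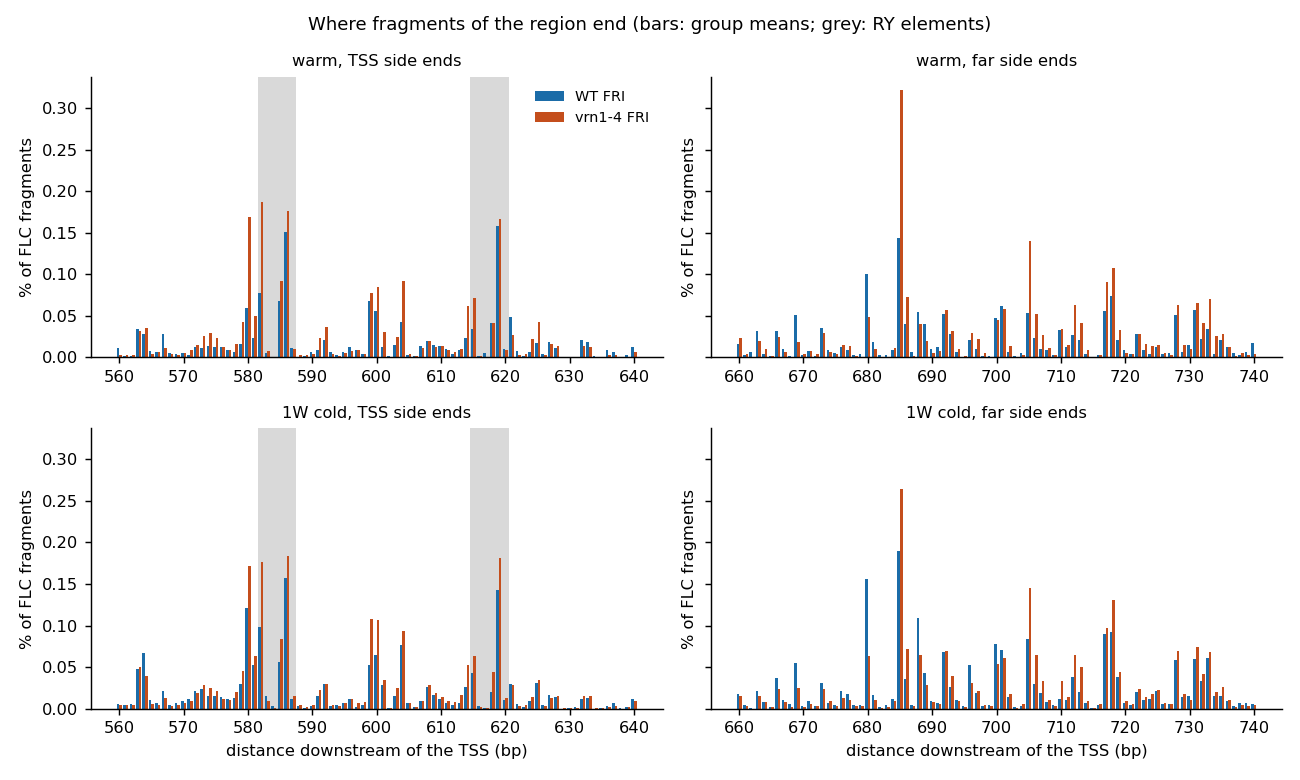
Percentage of *FLC* fragments with an end at each base, group means, for TSS-side ends at 560 to 640 bp (left) and far ends at 660 to 740 bp (right), warm above and 1W cold below. Tall TSS-side bars fall inside the RY elements (grey) and 2 bp before the first of them, at 580 bp, and the *vrn1-4* FRI bar at 685 bp (0.321% in the warm) is the tallest.

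The 5 most frequent distinct fragments of the region, by the mean of the 4 group means, were 2 around the last position, 1 that starts inside RY-2 and 2 short ones that start at RY-1. That mean rises with high values in 1 genotype alone, so genotype contrasts in these fragments are not independent of the choice. The short fragment from 582 to 685 bp (104 bp, 3178763 to 3178866) begins exactly with RY-1 and contains both elements. It made up 0.0163, 0.00627 and 0.0185% of *FLC* fragments in WT FRI warm and 0.0616, 0.0516 and 0.0645% in *vrn1-4* FRI warm. In 1W cold it made up 0.0446, 0.00478, 0.00675 and 0.00894% in WT FRI and 0.0581, 0.0468, 0.0406 and 0.0318% in *vrn1-4* FRI. WT FRI 1W cold replicate 1 was the only WT FRI library within the range of *vrn1-4* FRI. The fragment from 580 to 685 bp (106 bp) was similar, at 0.017 ± 0.0146% and 0.0184 ± 0.016% in WT FRI warm and 1W cold and 0.0469 ± 0.0083% and 0.0351 ± 0.0126% in *vrn1-4* FRI.

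The long fragment from 619 to 767 bp (149 bp), which begins with the last bases of RY-2 and runs away from the TSS, went the other way. It made up 0.0523, 0.0334 and 0.0476% in WT FRI warm and 0.0223, 0.0177 and 0.0202% in *vrn1-4* FRI warm, with no overlap. In 1W cold it made up 0.0425 ± 0.0106% in WT FRI and 0.0271 ± 0.0061% in *vrn1-4* FRI (exact permutation p = 0.1 in the warm and 0.0571 in 1W cold). Around the last position, the fragment from 855 to 998 bp had 0.0577 ± 0.038%, 0.0282 ± 0.00997%, 0.0293 ± 0.00205% and 0.0386 ± 0.00701% in WT FRI warm, WT FRI 1W cold, *vrn1-4* FRI warm and *vrn1-4* FRI 1W cold. The fragment from 841 to 985 bp had 0.0421 ± 0.0178%, 0.0305 ± 0.0161%, 0.0129 ± 0.00416% and 0.0149 ± 0.00301% in that order. No comparison of the 5 fragments reached an exact permutation p of 0.05.

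RY-2, the element further from the TSS, was covered by more fragments than RY-1 in all 14 libraries. Fragments over both elements made up 1.16, 0.974 and 1.5% in WT FRI warm, 1.66, 1.55, 1.68 and 1.56% in WT FRI 1W cold, 1.07, 1.19 and 1.23% in *vrn1-4* FRI warm and 1.38, 1.33, 1.46 and 0.885% in *vrn1-4* FRI 1W cold. Every WT FRI 1W cold library lay above every other library. Coverage of both elements was 1.33-fold higher in 1W cold than in the warm in WT FRI (exact permutation p = 0.0286, adjusted 0.152 over 16 tests of RY coverage) and 1.08-fold in *vrn1-4* FRI (exact permutation p = 0.571, adjusted 0.8). In 1W cold it was 0.783-fold in *vrn1-4* FRI relative to WT FRI (exact permutation p = 0.0286, adjusted 0.152), and in the warm 0.962-fold (exact permutation p = 0.9). The difference between the genotypes in the cold change was -0.304 percentage points, *vrn1-4* FRI less WT FRI (permutation p = 0.22), so it was not shown that the genotypes respond differently. The lowest *vrn1-4* FRI 1W cold value, 0.885%, was replicate 4, and without it the genotype difference in 1W cold went from -0.35 to -0.223 percentage points. Its p rose to 0.0571 when any 1 WT FRI 1W cold library was left out. The WT FRI cold comparison lost a p below 0.05 when any 1 library was left out (0.0667 or 0.1), as 2 against 4 and 3 against 3 libraries cannot reach it.

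Fragments over RY-2 that did not cover RY-1 showed the opposite order of genotypes. They made up 0.526, 0.731 and 0.734% in WT FRI warm and 1.00, 0.852 and 0.91% in *vrn1-4* FRI warm. In 1W cold they made up 1.01, 0.646, 0.623 and 0.629% in WT FRI and 1.1, 0.921, 0.963 and 1.01% in *vrn1-4* FRI. The ratio of *vrn1-4* FRI to WT FRI was 1.39 in the warm and 1.37 in 1W cold (exact permutation p = 0.1 and 0.0857, adjusted 0.229 for both). Fragments with a TSS-side end inside either element gave the same order, at 0.568 ± 0.0783% in WT FRI warm against 0.764 ± 0.0403% in *vrn1-4* FRI warm, and 0.562 ± 0.148% against 0.774 ± 0.0625% in 1W cold (exact permutation p = 0.1 and 0.0857). WT FRI 1W cold replicate 1 (0.784%) was within the *vrn1-4* FRI range, and without it the cold difference was 0.286 instead of 0.212 percentage points (exact permutation p = 0.0286). When each distinct fragment was counted once, the genotypes no longer differed in this direction (-0.0119 percentage points in the warm and -0.00869 in 1W cold). Such a count leaves out how often each fragment was found, and it can depend on depth, which is unknown. It thus cannot show what the order rested on. Removal of PCR duplicates is not stated, and their part in the frequencies of the fragments was not tested.

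The fragments of the region were shorter than those of the rest of *FLC* in all 14 libraries. The mean length in the region was 126.9, 124.2 and 129.8 bp in WT FRI warm, 129.7, 131.7, 131.5 and 131.4 bp in WT FRI 1W cold, 123.9, 122.2 and 123.8 bp in *vrn1-4* FRI warm and 125.3, 125.3, 127.5 and 124.5 bp in *vrn1-4* FRI 1W cold. In the rest of *FLC* it was 128.3 ± 2.67, 132.5 ± 0.494, 126.6 ± 1.7 and 128.2 ± 1.33 bp in the same order of groups. Length in the rest of the locus differed between groups too, so the region was also compared with the rest of *FLC* in the same library. The shortfall was 1.3 ± 0.447 bp in WT FRI warm and 1.45 ± 0.475 bp in WT FRI 1W cold, and 3.28 ± 0.781 and 2.51 ± 0.495 bp in *vrn1-4* FRI. *vrn1-4* FRI libraries had the larger shortfall in the warm without overlap (exact permutation p = 0.1, adjusted 0.133) and in 1W cold with overlap (exact permutation p = 0.0571, adjusted 0.114). Without WT FRI 1W cold replicate 1 the cold difference was 1.29 bp (exact permutation p = 0.0286), and with each distinct fragment counted once the differences between genotypes had the opposite sign (0.105 and 0.151 bp longer in *vrn1-4* FRI).

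The shortest fragments lay around the RY elements. Segment 2 had the shortest mean length of the 4 segments in 12 of 14 libraries and the highest share of fragments of at most 110 bp in 13 of 14. That share was 31.6, 32.7 and 23.0% in WT FRI warm, 18.9 to 25.2% in WT FRI 1W cold, 36.2, 35.6 and 37.0% in *vrn1-4* FRI warm and 33.8, 32.6, 29.1 and 36.3% in *vrn1-4* FRI 1W cold. All *vrn1-4* FRI 1W cold libraries lay above all WT FRI 1W cold libraries, 1.58-fold on average (exact permutation p = 0.0286, adjusted 0.102 over 68 tests of added measures). In the rest of *FLC* the same share was 21.3 ± 1.73% in *vrn1-4* FRI 1W cold and 15.1 ± 1.17% in WT FRI 1W cold, 1.41-fold (exact permutation p = 0.0286, adjusted 0.102). In 1W cold short fragments were thus more frequent in *vrn1-4* FRI both around the RY elements and over the rest of the locus. In the warm the share in *vrn1-4* FRI was 1.25-fold that in WT FRI in segment 2, without overlap (exact permutation p = 0.1). In the rest of *FLC* it was 1.11-fold in the warm, with overlap (23.3 against 21.0%, exact permutation p = 0.4). How far the extent of digestion differed between libraries was not tested.

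**Figure D3:**
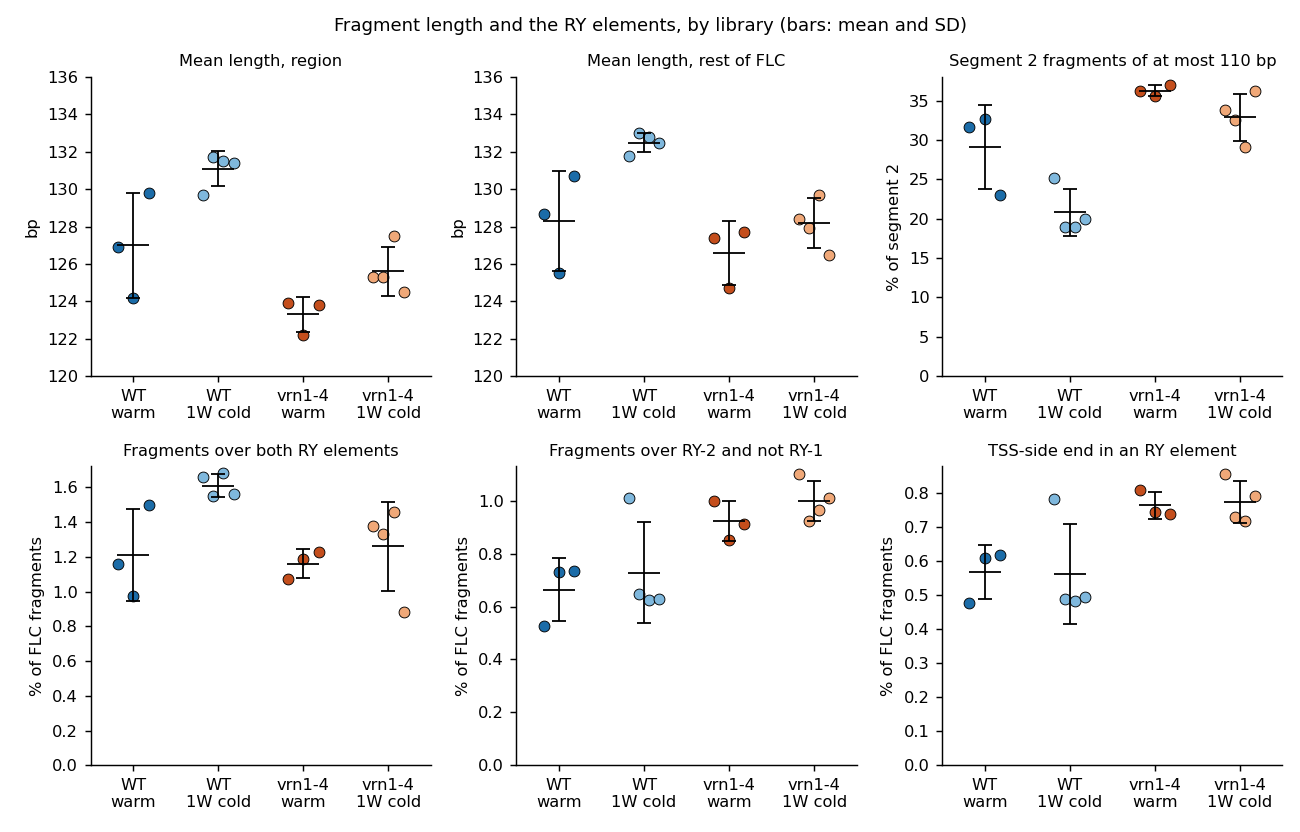
Mean fragment length in the region and in the rest of *FLC* (bp, axes not starting at 0), short fragments of segment 2, and fragments over or ending in the RY elements, per library, with mean and SD. The 4 WT FRI 1W cold libraries lie highest for fragments over both elements (1.55 to 1.68%), and 1 of them joins *vrn1-4* FRI for fragments ending in an element (0.784%).

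The region as a whole held 4.68 to 6.21% of *FLC* fragments, against 6.48% of the length of the target. It held 4.68, 4.9 and 5.88% in WT FRI warm, 6.21, 5.94, 5.75 and 5.64% in WT FRI 1W cold, 4.85, 4.86 and 4.77% in *vrn1-4* FRI warm and 5.27, 5.12, 5.62 and 4.89% in *vrn1-4* FRI 1W cold. WT FRI 1W cold libraries lay above all *vrn1-4* FRI libraries, while WT FRI warm replicate 3 lay among the cold ones. The share in *vrn1-4* FRI was 0.888-fold that in WT FRI in 1W cold (exact permutation p = 0.0286, adjusted 0.114 over 4 comparisons) and 0.937-fold in the warm (exact permutation p = 0.7). The cold difference of -0.661 percentage points was -0.552 without WT FRI 1W cold replicate 1, and its exact permutation p was 0.0571 without any 1 WT FRI 1W cold library or *vrn1-4* FRI 1W cold replicate 4. Counting only fragments wholly inside the region, it was -0.114 percentage points (exact permutation p = 0.829). Between 1W cold and warm the fold was 1.14 in WT FRI (exact permutation p = 0.114, adjusted 0.152) and 1.08 in *vrn1-4* FRI (exact permutation p = 0.0571, adjusted 0.114). The cold change did not differ detectably between genotypes (a difference of -0.338 percentage points, permutation p = 0.531). This value depended on the WT FRI warm group. Without its replicate 3 the difference was -0.702 percentage points (permutation p = 0.0214), and with replicate 3 as the only WT FRI warm library the cold change in WT FRI was 0.00814 percentage points.

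Of the 4 segments, segment 2 held the most fragments in every library and segment 3 (690 to 844 bp) the fewest. Segment 1 (380 to 534 bp) held 1.13 ± 0.176, 1.42 ± 0.143, 1.07 ± 0.0743 and 1.04 ± 0.112% in WT FRI warm, WT FRI 1W cold, *vrn1-4* FRI warm and *vrn1-4* FRI 1W cold. Here every WT FRI 1W cold library (1.29 to 1.62%) lay above every *vrn1-4* FRI 1W cold library (0.92 to 1.19%), a 0.732-fold level in the mutant (exact permutation p = 0.0286, adjusted 0.267 over 16 tests of segments). The difference of -0.381 percentage points was -0.316 without WT FRI 1W cold replicate 1 (exact permutation p = 0.0571) and -0.166 with each distinct fragment counted once (exact permutation p = 0.0571). Segment 2 held 2.18 ± 0.294, 2.55 ± 0.251, 2.44 ± 0.0166 and 2.59 ± 0.215% in that order of groups, with overlapping values in each comparison. Segment 3 held 0.781 ± 0.0639, 0.76 ± 0.0441, 0.511 ± 0.0341 and 0.609 ± 0.1%. In the warm, *vrn1-4* FRI was below WT FRI in segment 3 (0.654-fold) and in segment 4 (0.815 ± 0.022 against 1.07 ± 0.122%, 0.765-fold) without overlap, at the smallest p that 3 against 3 libraries allow (exact permutation p = 0.1, adjusted 0.267). The mean midpoint of segment 3 was further from the TSS in 1W cold than in the warm in both genotypes, by 6.82 bp in WT FRI and 5.61 bp in *vrn1-4* FRI without overlap (exact permutation p = 0.0286 for each, adjusted 0.143). With each distinct fragment counted once WT FRI had an exact permutation p of 0.171 and *vrn1-4* FRI one of 0.0571, with fragments of 120 bp or longer it was 0.171 in *vrn1-4* FRI (4.11 bp), and with any 1 library left out it was 0.0667 to 0.133.

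The region was also set against the DNA just upstream. The share between the TSS and 379 bp, where the +1 and +2 nucleosomes lie, was 6.92 ± 1.11, 5.67 ± 0.732, 9.44 ± 0.428 and 7.37 ± 0.955% in WT FRI warm, WT FRI 1W cold, *vrn1-4* FRI warm and *vrn1-4* FRI 1W cold. The log2 ratio of the region to that stretch was -0.42 ± 0.415, 0.06 ± 0.159, -0.97 ± 0.0795 and -0.49 ± 0.275 in that order. In 1W cold the ratio was 0.55 lower in *vrn1-4* FRI on the log2 scale without overlap (exact permutation p = 0.0286, adjusted 0.114 over 4 comparisons), and in the warm it was 0.55 lower, again without overlap (exact permutation p = 0.1, adjusted 0.114). The 1W cold genotype difference was -0.256 with each distinct fragment counted once (exact permutation p = 0.0571), and its exact permutation p was 0.0571 without any 1 WT FRI 1W cold library. The cold difference in the ratio was 0.48 in both genotypes (exact permutation p = 0.114 in WT FRI and 0.0571 in *vrn1-4* FRI), with a difference between genotypes of -0.00464 (permutation p = 0.99). In the next 620 bp of intron 1 (1000 to 1619 bp) the share was 10.2 ± 0.801, 10.4 ± 0.824, 8.88 ± 0.775 and 9.12 ± 0.554%, and no comparison there reached an exact permutation p of 0.05. The share in *vrn1-4* FRI was still 0.868-fold that in WT FRI in the warm and 0.877-fold in 1W cold (exact permutation p = 0.2 and 0.0857). For the region itself the folds were 0.937 and 0.888, so a lower share in the mutant was not particular to the region.

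**Figure D4:**
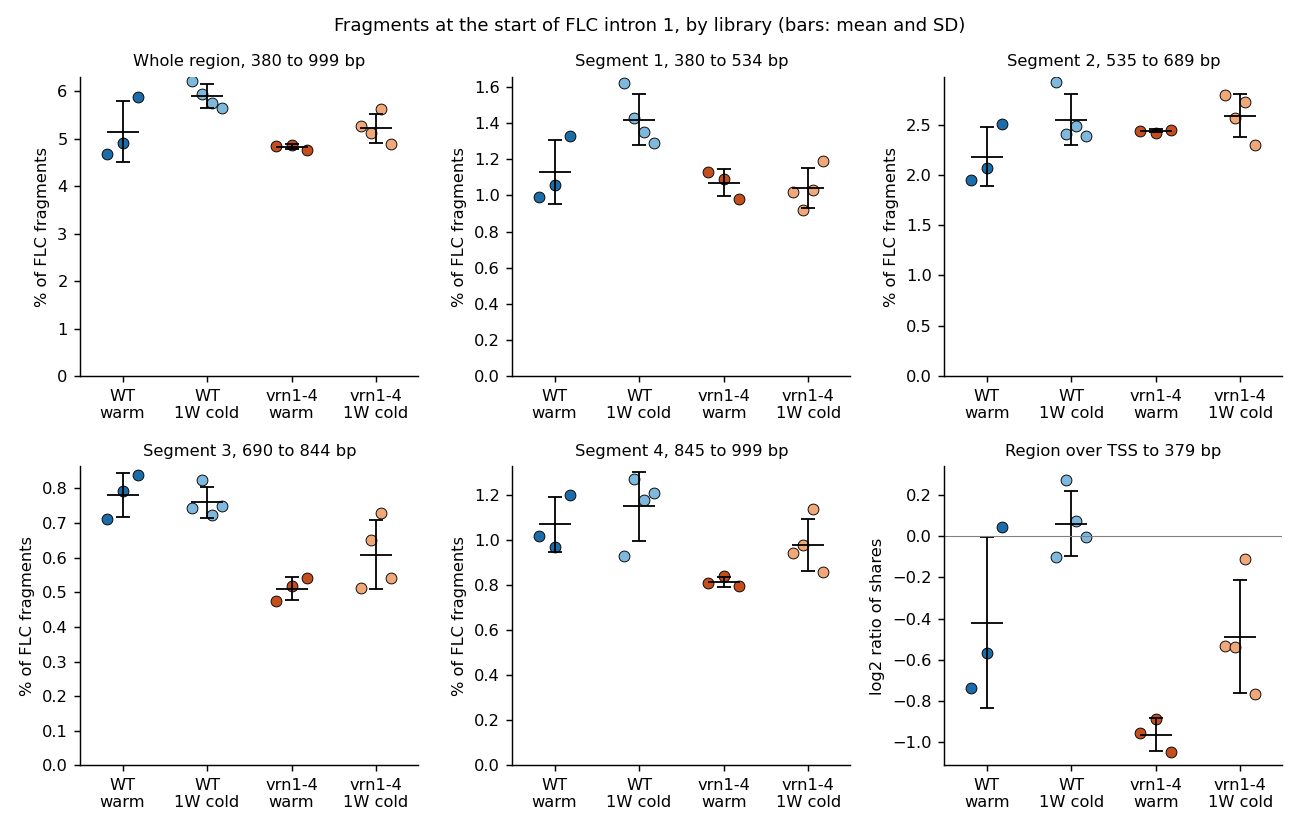
Percentage of *FLC* fragments per library in the region and in each segment, and the log2 ratio of the region to the stretch from the TSS to 379 bp, with mean and SD for 3 warm and 4 cold libraries per genotype. The *vrn1-4* FRI warm libraries are close together (4.77 to 4.86%), WT FRI warm ones are spread (4.68 to 5.88%), and the ratio is lowest in *vrn1-4* FRI warm.

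To place these differences, the region was divided into 31 bins of 20 bp and tested with the other bins of *FLC* by limma on log2(share + 0.0001), with Benjamini-Hochberg adjustment over 457 bins. All 31 bins passed the filter on low shares. In the warm 9 of the 31 bins (29.0%) differed between genotypes, where 26.5% of all *FLC* bins did, and in 1W cold 10 (32.3%), where 29.5% of all did. Both shares were close to those of the whole locus. In the warm 2 of the called bins were higher in *vrn1-4* FRI and 7 lower, and in 1W cold 1 higher and 9 lower. Over all *FLC* the called bins were also mostly lower, with 28 higher and 93 lower in the warm and 42 higher and 93 lower in 1W cold. The median log2 change of all bins was itself -0.14 and -0.12, and after centring each library on its median bin the split was 4 higher and 3 lower in the warm and 2 higher and 6 lower in 1W cold. Of the bins called, 5 were called in the same direction at both temperatures, all of them lower. They are 55.6% of the warm and 50.0% of the cold calls, against 62.8% and 56.3% for called bins of all *FLC* in either direction. Over all *FLC*, 62 of the 76 bins called at both temperatures were lower at both.

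In the warm, *vrn1-4* FRI was lower at 540 to 559 bp, before RY-1, with shares of 0.044, 0.0355 and 0.0402% against 0.157, 0.104 and 0.133% in WT FRI (log2 change -1.49, SE 0.291, adjusted p = 0.00327). It was lower at 580 to 599 bp (log2 change -0.93, SE 0.216, adjusted p = 0.00716), at 940 to 959 bp (-0.89, SE 0.173, adjusted p = 0.00327) and at 380 to 399 bp (-0.69, SE 0.198, adjusted p = 0.0186). At 620 to 639 bp, just past RY-2, it was higher, with 0.562, 0.628 and 0.61% against 0.352, 0.353 and 0.47% (log2 change 0.61, SE 0.171, adjusted p = 0.0166). With fragments of 120 bp or longer alone, 4 of these 5 differences were lost in limma: -0.02 at 620 to 639 bp (adjusted p = 0.976), -0.04 at 940 to 959 bp (0.946), -0.50 at 580 to 599 bp (0.137) and -0.41 at 380 to 399 bp (0.227). In 1W cold, *vrn1-4* FRI was lower at 420 to 439 bp (log2 change -1.22, SE 0.208, adjusted p = 0.00278) and at 440 to 459 bp (-0.69, SE 0.125, adjusted p = 0.00278), both at the first position. It was also lower at 580 to 599 bp (-0.78, SE 0.187, adjusted p = 0.00834), at 960 to 979 bp (-0.89, SE 0.215, adjusted p = 0.00834) and at 600 to 619 bp, where WT FRI had its own maximum, with 0.313, 0.366, 0.375 and 0.204% against 0.467, 0.593, 0.72 and 0.595% (-0.92, SE 0.219, adjusted p = 0.00834). Of these 5, the difference at 580 to 599 bp was lost with fragments of 120 bp or longer (-0.51, adjusted p = 0.0810).

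Few bins were called between 1W cold and warm after adjustment. At an unadjusted limma p under 0.05 there were 122 of the 457 *FLC* bins in WT FRI, 11 of them in the region. After adjustment 2 of 31 bins (6.45%) were called in WT FRI, both higher in 1W cold, against 2.84% of all *FLC* bins called. They were 440 to 459 bp, from 0.215, 0.217 and 0.194% to 0.335, 0.35, 0.31 and 0.282% (log2 change 0.59, SE 0.135, adjusted p = 0.0426), and 420 to 439 bp, from 0.134, 0.0857 and 0.161% to 0.155, 0.284, 0.283 and 0.262% (log2 change 0.90, SE 0.225, adjusted p = 0.0426). Both lie at the first position. In *vrn1-4* FRI 0% of all 457 bins were called by limma, and at an unadjusted p under 0.05 there were 59 of them, 4 in the region. The 3 with the smallest p in the region did not pass: 800 to 819 bp (log2 change 0.56, SE 0.161), 940 to 959 bp (0.52, SE 0.162) and 960 to 979 bp (0.65, SE 0.232), each with an adjusted p of 0.346. The difference between genotypes in the cold change was called at 0% of the bins too (27 of 457 at an unadjusted p under 0.05, 3 of them in the region), and at 440 to 459 bp it was -0.66 (SE 0.191, adjusted p = 0.667). It was thus not shown that the rise at the first position is particular to WT FRI.

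The counts of called bins were not firm. The 2 bins of the WT FRI cold comparison became 0 without WT FRI warm replicate 2, any 1 of WT FRI 1W cold replicates 2 to 4, *vrn1-4* FRI warm replicate 2 or 3, or *vrn1-4* FRI 1W cold replicate 1 or 2, and 5 without WT FRI warm replicate 3 or *vrn1-4* FRI 1W cold replicate 4. Without WT FRI warm replicate 1 both were lost (adjusted p = 0.0978 for each), and 1 other bin was called lower. The 9 of the warm genotype comparison became 5 without any 1 of WT FRI warm replicates 1 and 3 or *vrn1-4* FRI warm replicates 1 to 3. The 10 of the cold genotype comparison became 5 or 6 without any 1 of WT FRI 1W cold replicates 2 to 4 or *vrn1-4* FRI 1W cold replicate 1. With each distinct fragment counted once the 3 counts were 0, 2 and 0, and the 2 bins called in the warm were both higher in *vrn1-4* FRI, so none of the lower calls was left.

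**Figure D5:**
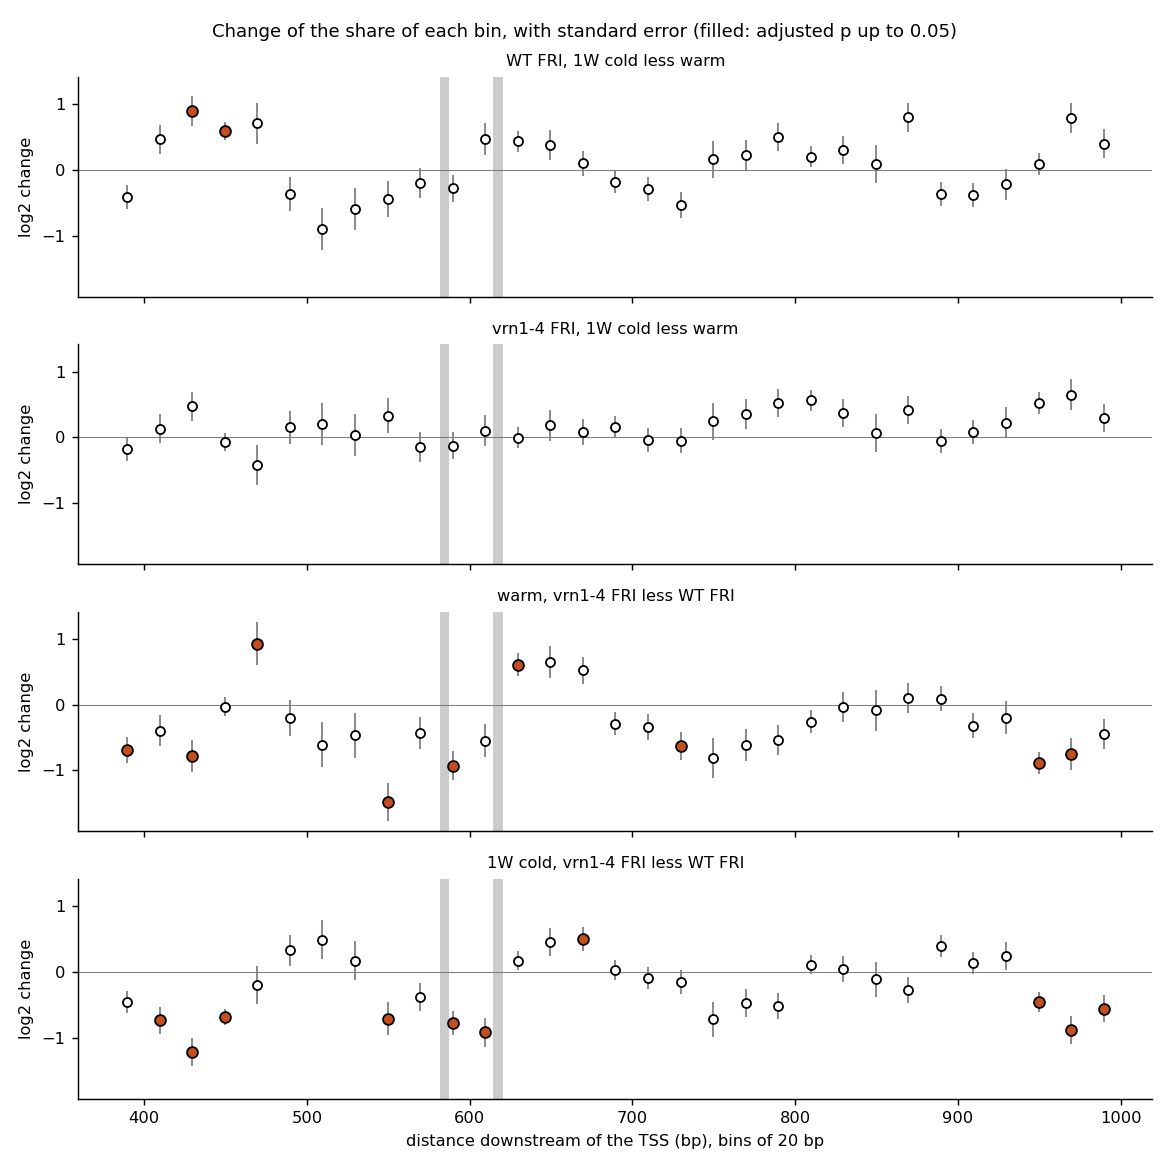
Log2 change of the share of each 20-bp bin with its standard error against distance from the TSS, for the cold comparison in each genotype and the genotype comparison at each temperature. Filled points passed an adjusted p of 0.05 (2, 0, 9 and 10 of 31 bins), and grey bands mark the RY elements.

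Libraries of 1 group had similar midpoint profiles over the region, and those of other genotypes less so. Pearson's r of the smoothed profiles, across positions that share a library and are not independent, had a median of 0.947 over the 18 pairs within a group (0.731 to 0.992). It was 0.905 over 24 pairs of the same genotype and other temperature, and 0.801 over 49 pairs of other genotypes (0.587 to 0.934). As a description, the Spearman correlation between GC content and mean share was 0.053 over the 31 bins and 0.28 over the 457 bins of *FLC*.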

How the data were processed

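MNase-digested DNA of Arabidopsis seedlings was captured with baits and sequenced in pairs. The authors trimmed adaptors with fastp, aligned to TAIR10 with Bowtie2, handled reads with SAMtools 1.5, kept fragments of 100 to 150 bp and deposited, for each distinct fragment of each library, its fraction of all *FLC* fragments, with its length and coordinates (other columns). Removal of duplicates is not stated. Fractions hide locus-wide changes, and the length limits make them depend on digestion. Depth is unknown, as the files give fractions only, and 0 columns were set aside.

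Fractions were summed per library. Single values were compared by exact permutation tests, the difference of cold changes by permuting genotypes within temperatures (1400 arrangements), and bins (mean share of at least 0.0001) by limma 3.58.1 in R 4.3.3, tested on simulated data. The permutation for cold changes takes the genotypes as alike at each temperature. Where they differ, its p is only a guide to a difference in the cold change. Python 3.11.15, numpy 2.4.6 and pandas 2.3.3 were used. The region, measures and tests were chosen with earlier results of these data known. Named were at most 5 called bins per comparison by p (otherwise the 3 smallest p, as not passing), the 5 most frequent fragments, and maxima and gaps of the profile. Nothing says that same-numbered libraries belong together. The correlation of their deviations over bins was -0.428 to 0.624 and not above 0.1 in every pair of any comparison, so they were not paired. Labels call the libraries biological replicates, which are otherwise not described. Alternatives were other length limits, borders, bins, pseudocounts, centring, distinct fragments, a replicate block and leaving out each library.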

Additional observations from a re-analysis of the deposited data

Results flagged for a closer look

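WT FRI 1W cold replicate 1 was far from the other 3 libraries of its group in the mean fragment length of the region, 129.7 bp against 131.4 to 131.7 bp, and in the share of fragments ending inside an RY element, 0.784% against 0.482 to 0.495%. Each passed the limit for a library far from its group, a limit that chance alone passes in about 1 of 20 groups.

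In segment 1 (380 to 534 bp) *vrn1-4* FRI 1W cold replicate 4 had a mean midpoint of 468.4 bp, where the other 3 libraries of its group had 456.6 to 458.3 bp.

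The cold change in the mean midpoint of the region differed between genotypes by 20.0 bp (permutation p = 0.0143, adjusted 0.271 over 19 such tests). In WT FRI the mean went from 672 ± 1.63 bp in the warm to 663.6 ± 10.2 bp in 1W cold, and in *vrn1-4* FRI from 660.1 ± 1.96 to 671.7 ± 7.56 bp. All 4 *vrn1-4* FRI 1W cold libraries lay above all 3 warm ones, while WT FRI values overlapped. Without WT FRI 1W cold replicate 1 (648.7 bp) the difference was 15.0 bp (permutation p = 0.0286).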

How the results depend on the processing

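WT FRI warm had the libraries with the fewest distinct fragments, and only fractions were deposited, so no counting error is given. Over 372 results under other settings, 281 kept their direction and their side of the threshold, and over 854 with 1 library left out, 727 did. Causes of the changes were not tested. The alternatives for the length shortfall, the ratio, short fragments, ends in RY elements, the difference in midpoints, WT FRI warm as 1 library and replicates 1 to 3 without a block were chosen after seeing the data. Below, a difference is 1W cold less warm, or *vrn1-4* FRI less WT FRI, in percentage points of *FLC* fragments or in bp.

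Shares of distinct fragments can depend on depth. The libraries held 14166 to 90960 distinct fragments over *FLC* in WT FRI warm and 63003 to 82621 in *vrn1-4* FRI warm. The part of this in the values that follow was not tested. Counting each distinct fragment once turned the warm genotype difference to 0.226 for the region and 0.0377 for segment 1, to 0.146 for both RY elements and 0.159 for RY-1. It turned the *vrn1-4* FRI cold change to -0.0726 for both elements, -0.0685 for RY-1, -0.12 for RY-2, -0.0408 for ends in an element, 0.00341 for segment 1 and -0.143 for segment 2, and its midpoints to 0.407 bp in segment 1 and -0.0692 bp in segment 2. Genotype differences in ends became -0.0119 and -0.00869, and length shortfalls 0.301 bp (WT FRI cold change), 0.105 and 0.151 bp. Segment 3 became 0.132 in WT FRI cold, and its midpoint -0.93 bp between genotypes in the warm. It gave exact permutation p-values of 0.0286 for midpoint (9.6 bp) and segment 4 (0.157) in *vrn1-4* FRI cold and for length (2.7 bp) and segment 2 (0.147) in WT FRI cold. In 1W cold the genotype difference was -0.166 in segment 1 and -0.256 in the log2 ratio (exact permutation p = 0.0571 for both).

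With fragments of 120 bp or longer, *vrn1-4* FRI cold changes were 0.00644 in segment 1, 0.812 bp in its midpoint and 1.41 bp in length (exact permutation p = 0.0286). Genotype differences were -0.0437 (warm) and -0.243 (cold) in segment 2, -0.0543 in RY-2 (warm), -0.276 in segment 1 (cold) and -0.02 on the log2 scale at 620 to 639 bp, and the difference in the cold change of the midpoint was 20.3 bp (permutation p = 0.0529). The cold genotype difference of the region was -0.114 for fragments wholly inside (exact permutation p = 0.829), -0.574 with borders moved 20 bp towards the TSS (0.0571) and -0.784 as a share of the transcribed gene (0.0857). With WT FRI warm replicate 3 alone, the WT FRI cold change was 0.00814 and the warm genotype difference -1.05.

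The called bins of the WT FRI cold comparison numbered 1 with a pseudocount of 0.00001, with no filter, with bins of 100 bp or with fragments of 120 bp or longer, and 0 with bins of 62 bp or distinct fragments. In the warm genotype comparison they numbered 2 with bins of 100 bp or distinct fragments and 4 with fragments of 120 bp or longer. In the cold they numbered 5 with bins of 62 bp or fragments of 120 bp or longer, 2 with bins of 100 bp and 0 with distinct fragments. The difference in the cold change had 1 with bins of 100 bp.

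Same-numbered libraries share only a number. With the replicate block, the cold genotype difference stayed at -0.661 for the region and -0.381 for segment 1, but 4 pairs cannot give an exact p below 0.125. With replicates 1 to 3 and the block, bins called were 5 (WT FRI cold) and 6 (cold genotype), and without the block 3 in both.

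With 1 library left out, the genotype difference of the region was -0.558 to 0.0403 (warm) and -0.792 to -0.551 (cold), and the difference in cold change -0.702 to -0.103. Coverage of both elements was 0.284 to 0.545 (WT FRI cold), -0.165 to 0.0965 (warm genotype) and -0.416 to -0.223 (cold genotype). RY-1 was -0.184 to 0.0655 (warm genotype), RY-2 -0.149 to 0.0426 (cold genotype), the log2 ratio -0.677 to -0.457 (cold genotype), ends -0.0791 to 0.0213 (WT FRI cold) and -0.0169 to 0.0336 (*vrn1-4* FRI cold), and the shortfall -0.399 to 0.0763 bp (WT FRI cold). Segment 1 was -0.0727 to 0.0178 (*vrn1-4* FRI cold), -0.126 to 0.0399 (warm genotype) and -0.431 to -0.316 (cold genotype), segment 2 -0.0257 to 0.164 (cold genotype), and segment 3 -0.0562 to 0.00674 (WT FRI cold) and -0.191 to -0.119 (cold genotype). Midpoints were -2.74 to 2.14 bp in segment 1 (*vrn1-4* FRI cold), -0.389 to 3.44 (WT FRI cold) and -0.795 to 1.89 bp (*vrn1-4* FRI cold) in segment 2, and -0.376 to 2.9 (warm genotype) and -1.01 to 1.12 bp (cold genotype) in segment 3. Called bins numbered 0 to 5 (WT FRI cold), 5 to 11 (warm genotype) and 5 to 13 (cold genotype).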
